A study of Mus musculus with 8 samples.

Results

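The amino acid transporters described here are 10 genes chosen by name, *Slc3a2*, *Slc7a5*, *Slc7a6*, *Slc1a4*, *Slc1a5*, *Slc7a1*, *Slc38a1*, *Slc38a2*, *Slc6a9* and *Slc43a1*, and found by their Ensembl identifiers among the 55385 genes of a table of RNA-seq counts. All 10 passed the expression filter of edgeR, which kept 17445 genes. The counts came from 8 libraries of R1 mESCs, wild-type mouse embryonic stem cells of an established line, cultured free of feeder cells on Poly-L-Ornithine and Laminin in N2B27 medium with 2i and Lif. Every culture received a lentiviral shRNA, with infection for 2 days followed by puromycin for 3 days. shRNA1 (3 libraries) and shRNA2 (3 libraries) are independent hairpins against *Eftud2*, a GTPase of the U5 snRNP, and nt-shRNA (2 libraries) is a hairpin without a target that serves as control. shRNA1 is directed at the untranslated 3′ end of the transcript and shRNA2 at its coding sequence. The model is a partial knockdown (KD) in 1 cell line, the KD cultures being the puromycin-resistant population, and all cultures carry the lentivirus and its selection. The question was how far transcripts of amino acid uptake differed between each hairpin and nt-shRNA, and between the hairpins.

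Amino acids cross the plasma membrane through carriers that differ in substrate and in driving force. Some of them, such as LAT1 and the ASCT proteins, exchange one amino acid for another, whereas the SNAT proteins use the sodium gradient to accumulate neutral amino acids such as glutamine. *Slc3a2* encodes the heavy chain that carries several *Slc7* light chains to the membrane, so heavy and light chains form one transporter. When amino acids run short, the kinase GCN2 phosphorylates eIF2, translation of ATF4 increases, and ATF4 with C/EBP partners activates many transporter and amino acid synthesis genes. Mouse embryonic stem cells are known for a high demand for amino acids, threonine and glutamine among them.

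Depth ran from 19569525 to 29871048 counts per library, so that 3 counts correspond to between 0.1004 and 0.1533 CPM (counts divided by the TMM-adjusted library size, the unit of all levels below). The raw counts of the 10 transporters ranged from 53 to 136 for *Slc6a9* up to 7382 to 16381 for *Slc7a5*. For the targeted *Eftud2* transcript the log2 fold change was -0.18 with shRNA1 (edgeR adjusted p = 0.0514) and -0.29 with shRNA2 (adjusted p = 0.00122). The shRNA1 value was called in 5 of 15 alternative settings, among them without shRNA2 replicate 2 (adjusted p = 0.0415) or replicate 3 (adjusted p = 0.0216). All 10 pluripotency markers listed passed the filter, with a summed level of 7244 to 7393 CPM with nt-shRNA, 7420 to 7684 CPM with shRNA1 and 7652 to 8049 CPM with shRNA2. This sum combines genes with opposite differences, the group means (nt-shRNA, shRNA1, shRNA2) being 2451, 1939 and 1256 CPM for *Dppa5a* and 773.4, 605.5 and 633.7 CPM for *Pou5f1*, but 911.5, 1339 and 1547 CPM for *Nanog*, 184.9, 290.1 and 459.8 CPM for *Klf4* and 170.8, 228.0 and 321.2 CPM for *Tbx3*. Summed markers of trophoblast (2.25 to 2.79 CPM), fibroblasts (4.0 to 6.27 CPM), neural cells (5.77 to 8.31 CPM), endoderm (14.1 to 21.9 CPM) and mesoderm (19.3 to 25.9 CPM) were low in all 8 libraries. Markers of primed or formative cells summed to 81.8 to 92.0 CPM with nt-shRNA, 99.0 to 109.1 CPM with shRNA1 and 118.9 to 126.2 CPM with shRNA2, and neural crest markers to 6.68 to 7.27, 9.91 to 11.3 and 20.3 to 26.4 CPM. The first sum followed *Dnmt3b* (group means 38.5, 61.5 and 91.8 CPM), whereas *Otx2* had lower means with the hairpins (46.5, 41.6 and 30.0 CPM) and *Fgf5* was at 0 in 5 libraries. The neural crest sum followed *Foxd3* (6.55, 9.93 and 21.9 CPM), with *Sox10* between 0.337 and 0.712 CPM and *Tfap2b* at 0 in 4 libraries. The part of these genes in the results was not tested. In bulk RNA, fewer cells that express a gene and less RNA per cell cannot be told apart.

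The promoters of the transporters are shown first, because ATF4-linked genes are compared with them below. RefSeq windows of 250 bases before to 50 bases after a transcript start (GRCm38.p6) matched 7 of the 10 genes by symbol, in 11 windows, and *Slc7a5*, *Slc1a5* and *Slc38a1* did not match. The windows were searched for TGATGNAA on both strands (its reverse form is TTNCATCA), the letters of the C/EBP-ATF element that ATF4 is known to bind, and for the E-box CACGTG, which reads alike on both strands and is known as a site of MYC proteins. TGATGNAA was found in 3.97% of all 32851 windows (4.51% of genes) and CACGTG in 7.15% (8.09% of genes), and among the transporters each was found in 1 of 11 windows, that is in 1 of 7 genes. Of the 7 transporters with a window, *Slc1a4* held TGATGNAA, in the reverse form and spanning its start from base -4 to base 4, and *Slc43a1* held CACGTG from base -64 to base -59. The sequences of *Slc1a4* (chr11:20332709-20332963, minus strand), *Slc3a2* (chr19:8713898-8714147, minus strand), *Slc38a2* (chr15:96699729-96699978, minus strand) and *Slc43a1* (chr2:84840073-84840322, plus strand) are given 5′ to 3′, with matches in capitals, since these genes had the lowest and the highest fold changes with shRNA2.
Slc1a4: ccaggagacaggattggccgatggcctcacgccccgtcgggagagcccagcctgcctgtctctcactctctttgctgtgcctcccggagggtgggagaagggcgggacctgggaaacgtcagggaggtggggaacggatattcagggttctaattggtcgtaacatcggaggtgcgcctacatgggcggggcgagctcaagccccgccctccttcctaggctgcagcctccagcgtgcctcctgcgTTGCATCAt
Slc3a2: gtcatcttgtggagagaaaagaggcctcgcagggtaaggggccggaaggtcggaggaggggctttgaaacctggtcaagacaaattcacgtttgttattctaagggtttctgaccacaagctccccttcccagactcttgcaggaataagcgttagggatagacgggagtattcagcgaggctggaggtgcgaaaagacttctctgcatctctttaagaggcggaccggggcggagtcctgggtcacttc
Slc38a2: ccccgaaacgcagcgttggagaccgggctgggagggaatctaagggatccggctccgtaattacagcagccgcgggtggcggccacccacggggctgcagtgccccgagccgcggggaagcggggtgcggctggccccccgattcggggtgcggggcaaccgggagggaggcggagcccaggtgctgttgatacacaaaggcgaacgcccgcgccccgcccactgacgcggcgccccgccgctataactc
Slc43a1: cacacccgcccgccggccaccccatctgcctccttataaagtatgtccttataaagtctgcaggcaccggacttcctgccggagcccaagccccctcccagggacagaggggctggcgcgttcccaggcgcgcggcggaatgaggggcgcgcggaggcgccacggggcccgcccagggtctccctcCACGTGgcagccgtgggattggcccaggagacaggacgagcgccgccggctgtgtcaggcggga
*Slc3a2* and *Slc38a2* had neither string of letters in the windows searched. A match is a description of the letters only.

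With shRNA1, 6 of the 10 transporters were lower than with nt-shRNA and none was higher, where 17.1% of all tested genes were called lower and 13.8% higher (edgeR's quasi-likelihood test, adjusted p under 0.05 over all tested genes). The count of 0 higher transporters was also 0 at an unadjusted p under 0.05 and 0 with DESeq2. With shRNA2, 6 were lower and 2 higher, against 28.7% and 27.2% of all tested genes. Compared directly, 4 were lower and 2 higher with shRNA2 than with shRNA1, against 18.7% and 16.9%. The lower count was 2 without shRNA1 replicate 3, and the higher count 4 without shRNA2 replicate 3. The median log2 fold change of the 10 genes was -0.305 with shRNA1 and -0.507 with shRNA2, where the medians of all tested genes were -0.0069 and 0.0040. Both hairpins were compared with the same 2 nt-shRNA libraries. Of these calls against nt-shRNA, 1 exceeded 2-fold, that of *Slc1a4* with shRNA2. Scaling by library size alone, without TMM, moved the median of all genes to 0.107 with shRNA1 and 0.0927 with shRNA2, and the calls over all genes with shRNA1 from 2407 higher and 2981 lower to 4101 higher and 1713 lower. With that scaling 4 transporters instead of 6 were called lower with shRNA1.

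**Figure D1:**
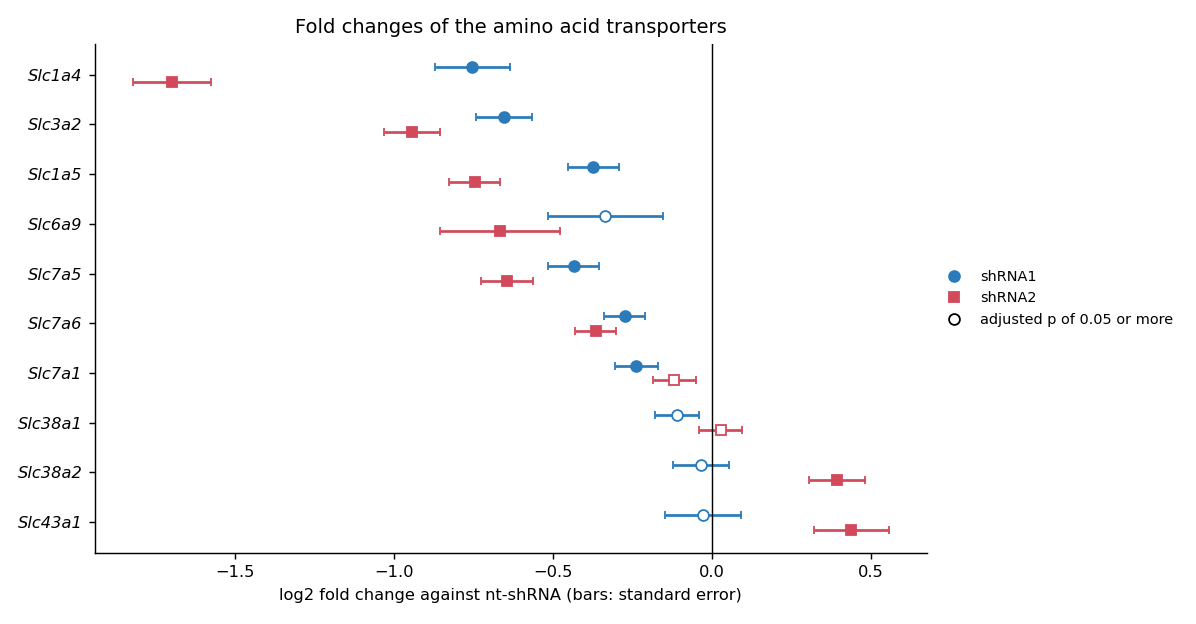
Log2 fold changes of the 10 transporters against nt-shRNA (x axis) with shRNA1 (circles, 3 libraries) and shRNA2 (squares, 3 libraries), with standard errors as bars. Open symbols did not pass an edgeR adjusted p of 0.05, and *Slc1a4* lies farthest to the left, at -1.70 with shRNA2, while *Slc38a2* and *Slc43a1* lie to the right of 0 with shRNA2, at 0.39 and 0.44.

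The 2 nt-shRNA libraries differed from each other in several of these genes. All 10 transporters were higher in nt-shRNA replicate 1 than in replicate 2, by a median of 0.173 on the log2 scale (with 0.5 added to each level), where 50.4% of all tested genes were higher and their median was 0.002 (quartiles -0.107 and 0.097). The gap was 0.321 for *Slc1a4*, 0.29 for *Slc7a5*, 0.285 for *Slc1a5* and 0.246 for *Slc3a2*. It was 0.02 for *Slc43a1*, 0.035 for *Slc7a6* and 0.039 for *Slc38a1*. Without nt-shRNA replicate 1, 3 transporters instead of 6 were called lower with shRNA1 (*Slc1a4*, *Slc3a2* and *Slc7a5*), where the share of all tested genes called lower went from 17.1% to 9.41%, and the values of the lost calls are given with each gene. The part of this gap in the fold changes was otherwise not tested.

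**Figure D2:**
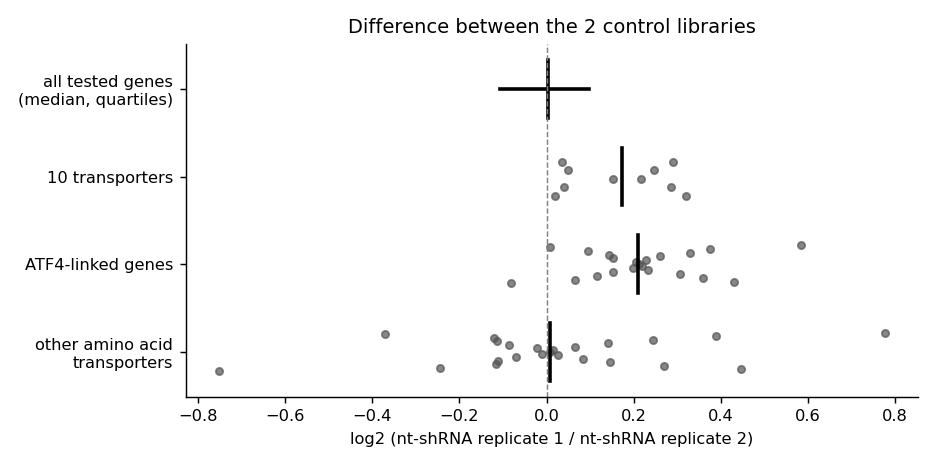
Log2 ratio of nt-shRNA replicate 1 to nt-shRNA replicate 2 (x axis) for each gene (points, spread vertically for legibility) of 3 lists, with the median as a vertical bar, and for all tested genes the median and quartiles. The 10 transporters all lie to the right of 0, with a median of 0.173, as do 20 of 21 ATF4-linked genes (median 0.209), while the other amino acid transporters (median 0.008) lie on both sides.

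*Slc3a2* (ENSMUSG00000010095, chr19:8706882-8723369, minus strand, GRCm38 as for all coordinates here) encodes the heavy chain 4F2hc, also called CD98hc. It was read at 478.6 and 403.5 CPM with nt-shRNA, at 276.8, 241.7 and 321.2 CPM with shRNA1 and at 225.0, 236.8 and 225.5 CPM with shRNA2. The 3 groups did not overlap, and the shRNA2 libraries lay closest together. *Slc3a2* fell by 36.5% with shRNA1 (log2 fold change -0.65, SE 0.0890, edgeR adjusted p = 2.2e-05) and fell by 48.0% with shRNA2 (-0.94, SE 0.0891, adjusted p = 5.2e-08). The hairpins differed by -0.29 on the log2 scale (edgeR adjusted p = 0.00955), but by -0.18 without shRNA1 replicate 3, the highest of the KD libraries (adjusted p = 0.0711).

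*Slc7a5* (ENSMUSG00000040010, chr8:121881150-121907694, minus strand) encodes LAT1, the light chain that exchanges large neutral amino acids such as leucine. It measured 614.1 and 502.2 CPM with nt-shRNA, 395.2, 383.5 and 458.2 CPM with shRNA1 and 343.3, 362.6 and 363.5 CPM with shRNA2. Each KD library lay below both controls, and each shRNA2 library below each shRNA1 library. *Slc7a5* fell by 26.1% with shRNA1 (log2 fold change -0.44, SE 0.0814, edgeR adjusted p = 4.7e-04) and fell by 36.1% with shRNA2 (-0.65, SE 0.0813, adjusted p = 1.8e-06). Without nt-shRNA replicate 1 the shRNA1 value was -0.28 (edgeR adjusted p = 0.0378). The difference between the hairpins, -0.21 (edgeR adjusted p = 0.0323), did not pass without shRNA1 replicate 3 (-0.13, adjusted p = 0.179), shRNA2 replicate 1 (-0.18, adjusted p = 0.123) or shRNA2 replicate 2 (-0.22, adjusted p = 0.05545).

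*Slc7a6* (ENSMUSG00000031904, chr8:106168857-106198706, plus strand) encodes y+LAT2, a light chain that exchanges cationic against neutral amino acids. Its levels were 95.7 and 93.4 CPM with nt-shRNA, 76.1, 75.9 and 82.3 CPM with shRNA1, and 75.8, 70.0 and 74.2 CPM with shRNA2. All KD libraries lay below both controls, and the controls differed little. The log2 fold change was -0.27 with shRNA1 (SE 0.0646, edgeR adjusted p = 0.00322) and -0.37 with shRNA2 (SE 0.0648, adjusted p = 9.1e-05), with no call between the hairpins (-0.09, adjusted p = 0.239). The difference between the hairpins was -0.05 without shRNA1 replicate 3 and -0.06 without shRNA2 replicate 2. The shRNA1 call was lost without nt-shRNA replicate 1 (-0.26, edgeR adjusted p = 0.05002, just above the threshold) and with library size alone (-0.16, adjusted p = 0.0640).

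The heavy chain was set against its light chains as CPM per kb of exon, counting all exon bases annotated for a gene. This length can exceed that of the transcript expressed, so ratios and orders between genes depend on it. The comparison of a ratio between groups does not. Over the 5 light chain genes that passed the filter (*Slc7a5*, *Slc7a6*, *Slc7a7*, *Slc7a8* and *Slc7a11*), the summed level was 194.4 and 163.5 CPM per kb with nt-shRNA, 128.5, 124.1 and 146.7 with shRNA1, and 113.2, 118.3 and 117.8 with shRNA2. *Slc7a5* made up between 81.75% and 85.18% of that sum in every library. The ratio of *Slc3a2* to this sum was 0.698 and 0.699 in the nt-shRNA libraries, 0.611, 0.552 and 0.620 in the shRNA1 libraries, and 0.563, 0.567 and 0.542 in the shRNA2 libraries. The heavy chain transcript was thus lower relative to its light chains in each KD library than in both controls, with group means of 0.698 ± 0.00114 (SD, n = 2), 0.594 ± 0.0371 (SD, n = 3) and 0.558 ± 0.0134 (SD, n = 3), and the KD groups overlapped. The 2 control libraries, which differed in both the heavy chain and the light chain sum, were alike in this ratio. The ratio of *Slc7a5* to *Slc7a6* was 7.27 ± 0.907 (SD, n = 2) with nt-shRNA, 6.50 ± 0.328 (SD, n = 3) with shRNA1 and 6.0 ± 0.403 (SD, n = 3) with shRNA2, with overlap between nt-shRNA and shRNA1. These ratios are given as a description, without a test.

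**Figure D3:**
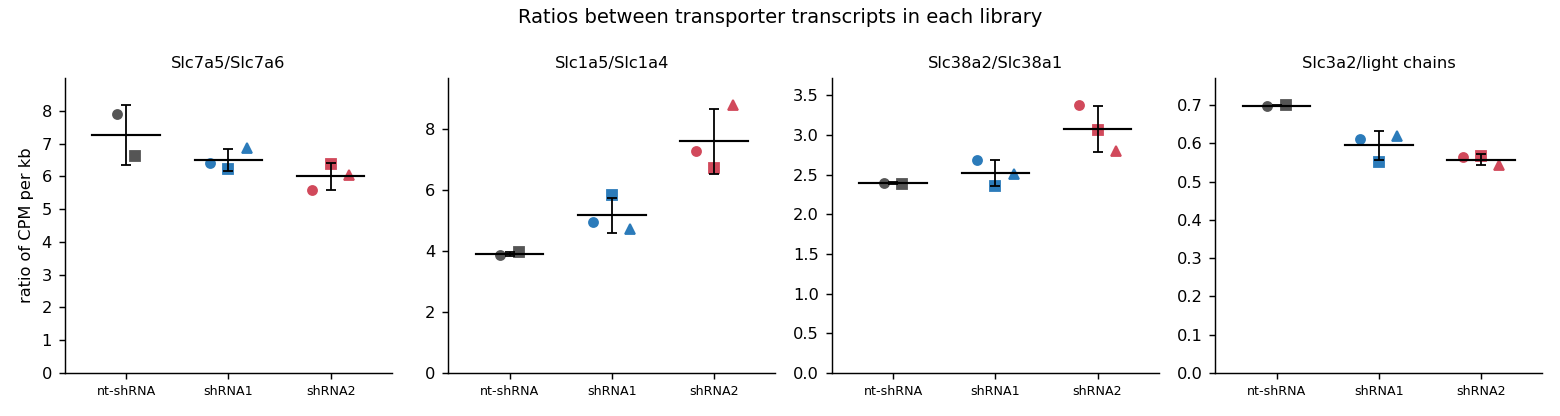
Ratios of CPM per kb (y axis) between transporter transcripts in each library (points: circle replicate 1, square replicate 2, triangle replicate 3), with the group mean as a line and the SD as a bar. *Slc1a5*/*Slc1a4* is 3.86 and 3.96 with nt-shRNA and between 6.72 and 8.79 with shRNA2, and *Slc3a2* to the sum of its light chains is near 0.70 in both control libraries and at most 0.620 in the KD libraries.

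*Slc1a4* (ENSMUSG00000020142, chr11:20302180-20332713, minus strand) encodes ASCT1, an exchanger of alanine, serine, cysteine and threonine, and had the lowest fold changes of the 10 genes with both hairpins. It measured 55.4 and 44.4 CPM with nt-shRNA, 30.4, 23.7 and 34.2 CPM with shRNA1 and 15.9, 16.2 and 14.0 CPM with shRNA2. The 3 groups stood clear of one another. *Slc1a4* fell by 40.7% with shRNA1 (log2 fold change -0.75, SE 0.118, edgeR adjusted p = 8.8e-05) and fell by 69.2% with shRNA2 (-1.70, SE 0.124, adjusted p = 2e-09). Between the hairpins it fell by 48.0% (-0.94, SE 0.118, edgeR adjusted p = 1.1e-05). Its 3 calls held in each of the 16 settings tried, with a range of -0.91 to -0.59 for shRNA1 and -1.85 to -1.53 for shRNA2. This is the transporter whose start lies within the TGATGNAA match shown above.

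*Slc1a5* (ENSMUSG00000001918, chr7:16781340-16798274, plus strand) encodes ASCT2, the related exchanger known for glutamine uptake. Its levels were 227.1 and 186.4 CPM with nt-shRNA, 159.4, 146.9 and 172.0 CPM with shRNA1 and 123.1, 116.0 and 130.4 CPM with shRNA2, again in 3 groups without overlap. *Slc1a5* fell by 22.8% with shRNA1 (log2 fold change -0.37, SE 0.0803, edgeR adjusted p = 0.00158) and fell by 40.4% with shRNA2 (-0.75, SE 0.0805, adjusted p = 2.7e-07), and the hairpins differed by -0.37 (SE 0.0736, adjusted p = 7.1e-04). The shRNA1 value was -0.22 without nt-shRNA replicate 1 and no longer passed (edgeR adjusted p = 0.1005).

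Per kb, *Slc1a5* exceeded *Slc1a4* in every library, and the ratio between them differed between the groups. It was 3.86 and 3.96 with nt-shRNA, 4.94, 5.84 and 4.74 with shRNA1, and 7.30, 6.72 and 8.79 with shRNA2. The 3 groups did not overlap, and the mean was 3.91 ± 0.0696 (SD, n = 2), 5.17 ± 0.584 (SD, n = 3) and 7.61 ± 1.07 (SD, n = 3). The control libraries, which differed in each of the genes, gave nearly the same ratio.

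*Slc7a1* (ENSMUSG00000041313, chr5:148327410-148399904, minus strand) encodes CAT1, the carrier of arginine and lysine that works without a heavy chain. It measured 171.8 and 154.7 CPM with nt-shRNA, 141.9, 131.7 and 141.2 CPM with shRNA1 and 152.2, 157.9 and 140.9 CPM with shRNA2. The shRNA1 libraries lay below both controls, whereas the shRNA2 libraries overlapped them. *Slc7a1* fell by 15.3% with shRNA1 (log2 fold change -0.24, SE 0.0669, edgeR adjusted p = 0.0106), and was not called with shRNA2 (-0.12, SE 0.0670, adjusted p = 0.14) or between the hairpins (0.12, adjusted p = 0.131). The shRNA1 call was lost without nt-shRNA replicate 1 (-0.16, edgeR adjusted p = 0.219), without shRNA1 replicate 2 (-0.21, adjusted p = 0.0612) and with library size alone (-0.12, adjusted p = 0.138). When 1 library was left out, the shRNA2 value ranged from -0.04 without nt-shRNA replicate 1 to -0.20 without nt-shRNA replicate 2. It was -0.07 without shRNA2 replicate 3 and -0.03 with library size alone (edgeR adjusted p = 0.719), with no call in any of them. Without shRNA2 replicate 3 the hairpins differed by 0.16 (edgeR adjusted p = 0.0483).

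*Slc38a1* and *Slc38a2*, the SNAT1 and SNAT2 genes, are neighbours on chromosome 15 (ENSMUSG00000023169, chr15:96571418-96642913, and ENSMUSG00000022462, chr15:96687392-96699730, both on the minus strand). SNAT2 is known as the carrier that cells raise when amino acids are short. *Slc38a2* stood at 122.0 and 118.0 CPM with nt-shRNA, 127.6, 109.3 and 114.3 CPM with shRNA1 and 168.0, 171.5 and 133.1 CPM with shRNA2. All shRNA2 libraries lay above all others, shRNA2 replicate 3 the least so, while shRNA1 and nt-shRNA overlapped. *Slc38a2* rose by 31.3% with shRNA2 (log2 fold change 0.39, SE 0.0890, edgeR adjusted p = 9.7e-04) and was not called with shRNA1 (-0.04, SE 0.0886, adjusted p = 0.796). It was 34.6% higher with shRNA2 than with shRNA1 (0.43, SE 0.0794, edgeR adjusted p = 4.3e-04), and both calls held in all 16 settings.

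*Slc38a1* did not pass the test in any of the 3 comparisons. Its levels were 99.2 and 96.6 CPM with nt-shRNA, 92.8, 90.5 and 88.8 CPM with shRNA1, and 97.1, 109.1 and 92.8 CPM with shRNA2. The log2 fold changes were -0.11 with shRNA1 (SE 0.0687, edgeR adjusted p = 0.238) and 0.03 with shRNA2 (SE 0.0687, adjusted p = 0.764), and the difference between the hairpins was 0.14 (adjusted p = 0.0955). That difference was 0.19 without shRNA2 replicate 3 (edgeR adjusted p = 0.0293) and 0.07 without shRNA2 replicate 2 (adjusted p = 0.422). Per kb, the ratio of *Slc38a2* to *Slc38a1* was 2.40 and 2.38 in the nt-shRNA libraries, 2.68, 2.36 and 2.51 in the shRNA1 libraries and 3.38, 3.06 and 2.80 in the shRNA2 libraries. The shRNA2 libraries lay above all others in this ratio, and shRNA1 overlapped the controls.

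*Slc43a1* (ENSMUSG00000027075, chr2:84838850-84863594, plus strand) encodes LAT3, a carrier of branched-chain amino acids and phenylalanine that needs neither sodium nor a heavy chain. It was a low transcript, at 9.82 and 9.69 CPM with nt-shRNA, 9.07, 9.43 and 10.1 CPM with shRNA1 and 12.7, 12.3 and 14.7 CPM with shRNA2, with raw counts between 191 and 320. The shRNA2 libraries lay above the other 5, and shRNA1 overlapped nt-shRNA. *Slc43a1* rose by 35.5% with shRNA2 (log2 fold change 0.44, SE 0.117, edgeR adjusted p = 0.00371), was not called with shRNA1 (-0.03, SE 0.119, adjusted p = 0.880), and was 38.2% higher with shRNA2 than with shRNA1 (0.47, SE 0.106, adjusted p = 0.00222). This is the transporter with the CACGTG match shown above. In the lists compared below, CACGTG was found in 3 of 23 other transporters, 3 of 21 ATF4-linked genes and 0 of 12 glutamine and asparagine enzymes. Of these, *Nupr1*, *Aldh18a1* and *Slc38a7* were called lower with shRNA2 (log2 fold changes -1.64, -0.74 and -0.31), and none was called higher in the main test.

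*Slc6a9* (ENSMUSG00000028542, chr4:117834506-117875198, plus strand) encodes the glycine carrier GlyT1 and was the lowest of the 10 transcripts. It measured 5.10 and 4.39 CPM with nt-shRNA, 3.70, 3.11 and 4.35 CPM with shRNA1 and 3.40, 2.39 and 3.17 CPM with shRNA2. The KD libraries all lay below both controls, and the KD groups overlapped. *Slc6a9* fell by 37.1% with shRNA2 (log2 fold change -0.67, SE 0.188, edgeR adjusted p = 0.00534), which did not pass without nt-shRNA replicate 1 (-0.56, with 1 control library left). It was not called with shRNA1 (-0.34, SE 0.182, edgeR adjusted p = 0.172) or between the hairpins (-0.33, adjusted p = 0.158). The difference between the hairpins was -0.19 without shRNA2 replicate 2 and -0.20 without shRNA1 replicate 3. Genes on the opposite strand (*Ccdc24*, *Gm17114* and *B4galt2*) cover 30.2% of its exon bases, and the counting used no strand, so its counts are uncertain. The other 9 transporters share no exon base with another annotated gene.

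**Figure D4:**
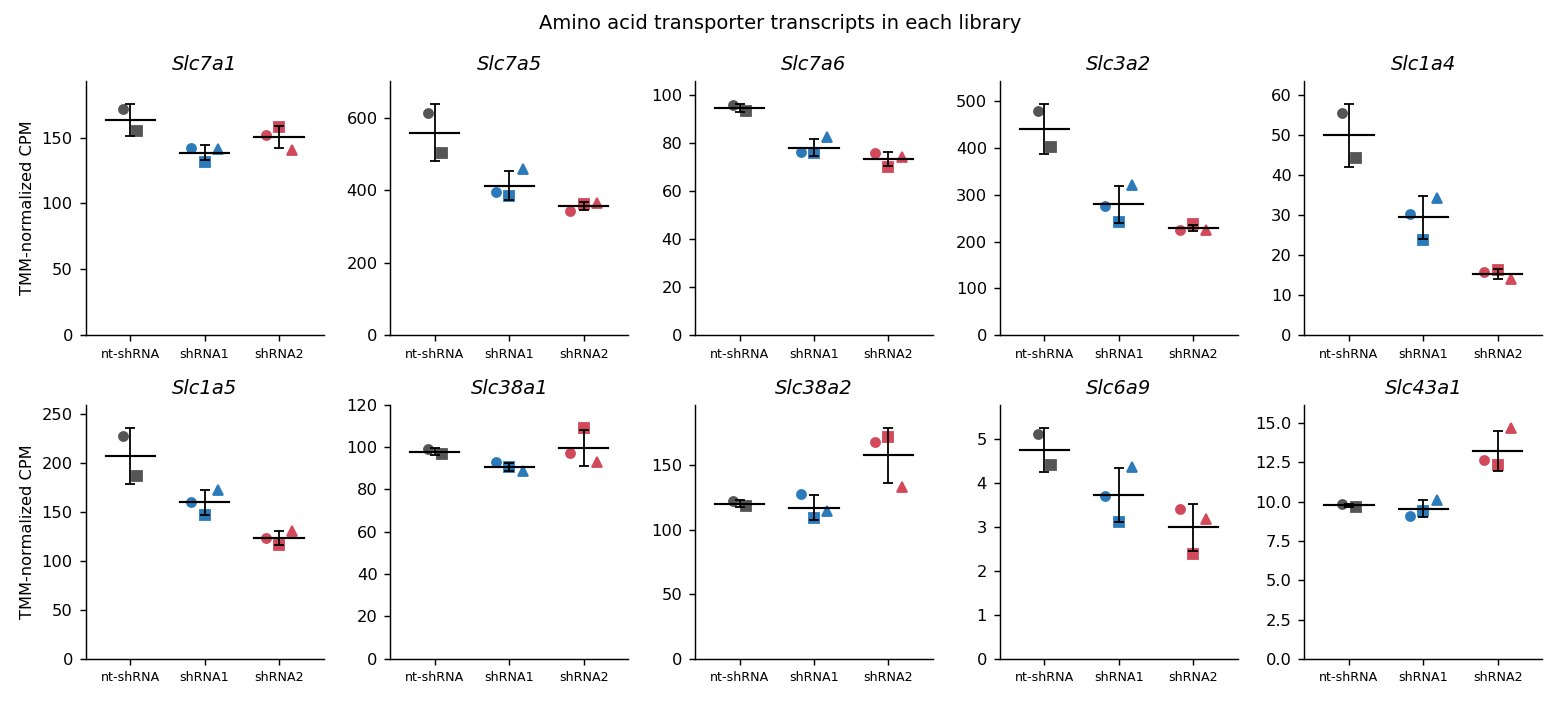
TMM-normalized CPM (y axis, from 0) of the 10 transporters in each of the 8 libraries (points: circle replicate 1, square replicate 2, triangle replicate 3), with the group mean as a line and the SD as a bar. *Slc3a2*, *Slc1a4* and *Slc1a5* show 3 separate groups falling from nt-shRNA to shRNA2, and *Slc38a2* and *Slc43a1* are higher in the 3 shRNA2 libraries than in the other 5.

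Set against each other per length, the 10 transcripts spanned a wide range. With nt-shRNA, *Slc7a5* (150.5 ± 21.3 CPM per kb, SD, n = 2) and *Slc3a2* (125.0 ± 15.1) led. *Slc7a5* exceeded *Slc3a2* in both control libraries (165.6 against 135.6 and 135.4 against 114.3 CPM per kb), although their SDs overlapped. They were followed by *Slc1a5* (49.6 ± 6.89) and *Slc7a6* (20.7 ± 0.355). *Slc7a1* (14.2 ± 1.05), *Slc38a2* (13.6 ± 0.321) and *Slc1a4* (12.7 ± 1.99) came next with overlapping SDs. *Slc7a1* was above the other two in both control libraries, whereas *Slc1a4* was above *Slc38a2* in replicate 1 and below it in replicate 2. *Slc38a1* (5.68 ± 0.109), *Slc43a1* (1.71 ± 0.0168) and *Slc6a9* (0.923 ± 0.0974) closed the order. In the shRNA2 libraries the first 3 places were the same, with *Slc7a5* (96.1 ± 3.08 CPM per kb, SD, n = 3) and *Slc3a2* (64.9 ± 1.89) apart from each other. *Slc38a2* (17.8 ± 2.40) came after *Slc1a5* (29.5 ± 1.72), above *Slc7a6* (16.1 ± 0.658) in replicates 1 and 2 and below it in replicate 3, and *Slc1a4* (3.91 ± 0.312) lay below *Slc38a1* (5.78 ± 0.489). With shRNA1, *Slc1a4* (7.49 ± 1.35 CPM per kb, SD, n = 3) was still above *Slc38a1* (5.26 ± 0.116).

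Of 29 other amino acid transporter genes listed for comparison, 23 were tested, and *Slc1a2*, *Slc3a1*, *Slc6a5*, *Slc6a17*, *Slc6a20a* and *Slc7a10* did not pass the filter, with at most 9 counts in any library. Among the 23, 3 were higher (13.0%) and 4 lower (17.4%) with shRNA1 (median log2 fold change 0.005), shares close to the 13.8% and 17.1% of all genes. With shRNA2, 5 were higher and 5 lower (median 0.176), shares of 21.7% each way beside the 27.2% and 28.7% of all genes. The 5 higher genes were 2 without shRNA2 replicate 2 or nt-shRNA replicate 1, and 3 without shRNA2 replicate 1 or nt-shRNA replicate 2. Genes higher with shRNA2 included *Slc36a4*, a carrier of proline and tryptophan, at 4.27 and 4.63 CPM with nt-shRNA, 7.53, 6.86 and 7.13 CPM with shRNA1 and 8.51, 7.80 and 7.99 CPM with shRNA2 (log2 fold changes 0.69 and 0.86, edgeR adjusted p = 8.9e-04 and 3.0e-05). *Slc7a2*, the CAT2 gene, rose with both hairpins (0.40 and 0.37, edgeR adjusted p = 0.00549 and 0.00462), calls that were lost without nt-shRNA replicate 1 (0.36 and 0.33, adjusted p = 0.0711 and 0.0560). Genes lower with shRNA2 included *Slc7a7*, the y+LAT1 light chain (-0.92 and -1.13, edgeR adjusted p = 9.3e-05 and 3.0e-06), *Slc6a6*, the taurine carrier (-0.32 and -0.34, adjusted p = 7.8e-04 and 1.9e-04), and *Slc38a4*, SNAT4 (-0.18 with shRNA1, adjusted p = 0.0715, and -0.48 with shRNA2, adjusted p = 1.3e-05). Opposite-strand genes cover 7.0% of the exon bases of *Slc7a7* and 1.4% of those of *Slc6a6*. For *Slc38a4*, the shRNA1 value passed without shRNA2 replicate 2 (-0.17, edgeR adjusted p = 0.0231), with no filter (-0.18, adjusted p = 0.0340) and with the replicate block (-0.20, adjusted p = 0.0214).

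Another arginine carrier of the list differed most between the hairpins. *Slc7a3*, the CAT3 gene, measured 25.8 and 26.0 CPM with nt-shRNA, 18.3, 15.8 and 15.3 CPM with shRNA1 and 30.1, 50.5 and 27.3 CPM with shRNA2, where replicate 2 stood far above the others. It fell with shRNA1 (log2 fold change -0.65, edgeR adjusted p = 0.00789) and was called higher with shRNA2 (0.47, adjusted p = 0.0232), and the hairpins differed by 1.13 (adjusted p = 3.4e-05). The shRNA2 call was lost without shRNA2 replicate 2 (0.15, edgeR adjusted p = 0.202), without nt-shRNA replicate 1 (0.47, adjusted p = 0.0903) or replicate 2 (0.48, adjusted p = 0.0834), with the 2 groups alone (0.48, adjusted p = 0.0516), and with DESeq2 (adjusted p = 0.18), which did not call the shRNA1 value either (adjusted p = 0.098). *Slc7a1*, by comparison, differed by 0.12 between the hairpins and did not pass. The test of one gene's change against the other's was not made.

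Genes that ATF4 is known to control in the response to amino acid shortage were listed from general knowledge, 22 in all, of which 21 were tested. With shRNA1, 16 were lower and 0 higher (0 also at an unadjusted p under 0.05 and with DESeq2), against 17.1% and 13.8% of all genes, with a median log2 fold change of -0.387. With shRNA2, 18 were lower and 1 higher, against 28.7% and 27.2%, with a median of -0.701. The higher count was 3 without shRNA2 replicate 3 and 2 without nt-shRNA replicate 1. The gene not tested, *Fgf21*, had 15 and 11 counts with nt-shRNA and 1 to 4 counts in the KD libraries. As with the transporters, 20 of the 21 genes were higher in nt-shRNA replicate 1 than in replicate 2 (median 0.209), and 10 rather than 16 were called lower with shRNA1 without nt-shRNA replicate 1, beside 9.41% of all tested genes in that setting.

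**Figure D5:**
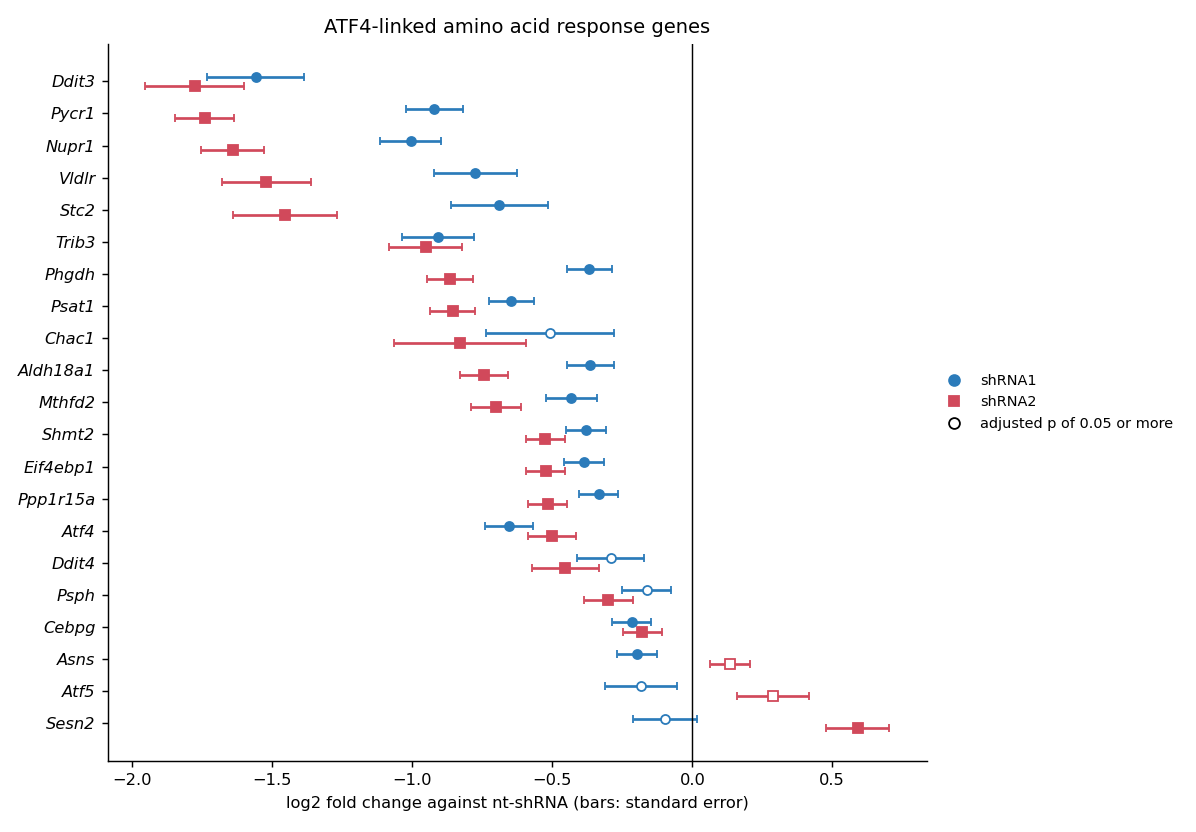
Log2 fold changes against nt-shRNA (x axis) of the 21 tested ATF4-linked genes with shRNA1 (circles) and shRNA2 (squares), with standard errors as bars and open symbols for an edgeR adjusted p of 0.05 or more. Most symbols lie left of 0, from *Ddit3* at -1.78 with shRNA2, and *Sesn2* lies farthest to the right, at 0.59 with shRNA2.

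*Pycr1*, an enzyme of proline synthesis, measured 67.2 and 62.0 CPM with nt-shRNA, 33.7, 28.04 and 40.0 CPM with shRNA1 and 18.7, 19.5 and 19.7 CPM with shRNA2, a pattern of 3 separate groups like that of *Slc1a4* (log2 fold changes -0.92 and -1.74, edgeR adjusted p = 2e-06 and 2.2e-10). *Nupr1*, a stress-induced nuclear protein, had log2 fold changes of -1.01 and -1.64 (edgeR adjusted p = 2e-06 and 1.1e-09). *Phgdh*, the first enzyme of serine synthesis, had values of -0.37 and -0.87 (edgeR adjusted p = 0.00192 and 4.9e-08), the first of which did not pass without nt-shRNA replicate 1 (-0.25, adjusted p = 0.0878). *Sesn2*, a sestrin that restrains mTORC1, was the gene called higher, at 84.9 and 76.8 CPM with nt-shRNA, 77.4, 70.2 and 78.8 CPM with shRNA1 and 116.5, 149.5 and 98.9 CPM with shRNA2 (0.59 with shRNA2, edgeR adjusted p = 2.1e-04, and 0.69 between the hairpins, adjusted p = 5.1e-05). *Sesn2* thus resembled *Slc38a2* and *Slc43a1* in the order of its groups rather than *Slc1a4*.

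The TGATGNAA letters were found in the RefSeq windows of 7 of 21 ATF4-linked genes (33.33%), *Asns*, *Chac1*, *Fgf21*, *Nupr1*, *Pycr1*, *Trib3* and *Vldlr*, where the share was 4.51% over all genes with a window, and the list was chosen partly for such sites being known in it. Among the other transporters 2 of 23 held them, *Slc7a7* and *Slc7a11*. Of the glutamine and asparagine enzymes listed below, 2 of 12 with a window did (16.67%), *Asns* and *Got1*. *Vldlr*, a lipoprotein receptor, had log2 fold changes of -0.78 and -1.52 (edgeR adjusted p = 6.1e-04 and 1.8e-07). Windows of 28 bases around a match are shown 5′ to 3′ for 4 of the genes that were lower with both hairpins, with the match in capitals. *Trib3* (log2 fold changes -0.91 and -0.95) and *Got1* also held a match and were lower with both, but are not shown. The windows are those of *Pycr1* (chr11:120643834-120643861, minus strand), *Nupr1* (chr7:126625563-126625590, minus strand), *Vldlr* (chr19:27216810-27216837, plus strand) and, from its earlier and later match, *Slc7a7* (chr14:54418068-54418095 and chr14:54417928-54417955, minus strand), all of GRCm38.p6. The later *Slc7a7* match runs from base -1 to base 7 of one RefSeq start and lies at base -243 to base -236 of another.
Pycr1: gccctgtgtaTGATGCAAtgcacaaggc
Nupr1: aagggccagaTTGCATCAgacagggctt
Vldlr: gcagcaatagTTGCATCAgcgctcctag
Slc7a7 earlier match: cgcttgggctTGATGAAAggttcactgg
Slc7a7 later match: acctagaagcTGATGCAAcagcttcccc
*Asns*, whose window also holds the letters, had log2 fold changes of -0.20 with shRNA1 (edgeR adjusted p = 0.0391) and 0.13 with shRNA2 (adjusted p = 0.114), and *Slc7a11*, the cystine carrier xCT with matches from base -66 and base -47, had -0.04 and -0.15 (adjusted p = 0.932 and 0.684). The shRNA1 call of *Asns* was lost in 9 of 15 alternative settings, and the shRNA2 value passed in 3. *Chac1*, with a match, had -0.51 and -0.83 (edgeR adjusted p = 0.101 and 0.00567). ATF4-linked genes with no match found were also lower with both hairpins, among them *Ddit3* (-1.56 and -1.78) and *Phgdh*. *Sesn2*, likewise with no match found, was higher with shRNA2. Whether a match goes with a lower level was not tested.

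Enzymes that make or use glutamine and asparagine were the last list, with 17 of 17 genes tested. With shRNA1, 7 were lower (41.2%) and 0 higher (1 higher at an unadjusted p under 0.05 and 0 with DESeq2), where 17.1% and 13.8% of all genes were called. With shRNA2, 9 were lower (52.9%) and 2 higher (11.8%), beside 28.7% and 27.2% of all genes. The medians were -0.174 and -0.186. The alanine transaminase *Gpt2* had log2 fold changes of -0.57 and -1.13 (edgeR adjusted p = 7.2e-05 and 4.6e-09), and the first was -0.38 without nt-shRNA replicate 1 (adjusted p = 0.00763). *Got1*, the cytosolic aspartate transaminase, had -0.43 and -0.81 (edgeR adjusted p = 1.7e-04 and 2.6e-08), and *Glud1*, glutamate dehydrogenase, -0.29 and -0.58 (adjusted p = 5.0e-04 and 5.5e-08). *Glul*, glutamine synthetase, and *Ppat*, which starts purine synthesis with glutamine, were called higher with shRNA2 (0.20 and 0.17, edgeR adjusted p = 0.0120 and 0.0210). Both calls were lost without nt-shRNA replicate 1 or replicate 2, where 1 control library remained. The values stayed similar, at 0.19 and 0.18 without replicate 1 and 0.20 and 0.16 without replicate 2. The call of *Ppat* was also lost without shRNA2 replicate 1 (0.16, edgeR adjusted p = 0.0730) or with no filter (0.15, adjusted p = 0.0805). Other annotated genes cover 3.1% of the exon bases of *Glul* and 6.2% of those of *Ppat*.

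Among regulators of these genes, *Atf4* itself measured 354.6 and 307.9 CPM with nt-shRNA, 208.7, 192.5 and 229.9 CPM with shRNA1 and 228.9, 262.3 and 210.2 CPM with shRNA2. It fell with shRNA1 (log2 fold change -0.65, edgeR adjusted p = 1.6e-05) and with shRNA2 (-0.50, adjusted p = 6.7e-05), and the hairpins did not differ by the test (0.15, adjusted p = 0.142), a value that was 0.22 without shRNA2 replicate 3 (adjusted p = 0.0310), 0.06 without shRNA2 replicate 2 (adjusted p = 0.589) and 0.09 without shRNA1 replicate 2 (adjusted p = 0.440). ATF4 is controlled mainly through translation, which was not measured here. *Eif2ak4*, the GCN2 kinase gene, had -0.17 with shRNA1 (edgeR adjusted p = 0.0835, and 0.0442 without shRNA2 replicate 2) and -0.37 with shRNA2 (adjusted p = 2.7e-04). *Gcn1*, which activates GCN2, had -0.18 and -0.21 (edgeR adjusted p = 0.0462 and 0.0111), and without nt-shRNA replicate 1 -0.11 and -0.15 (adjusted p = 0.411 and 0.174). The shRNA1 call of *Gcn1* was also lost with library size alone (-0.07, adjusted p = 0.446), with at least 10 counts in every library (adjusted p = 0.0911), with the 2 groups alone (adjusted p = 0.0826), and without shRNA1 replicate 1 (adjusted p = 0.169), shRNA1 replicate 2 (adjusted p = 0.135) or shRNA2 replicate 1 (adjusted p = 0.0686), and its shRNA2 call with library size alone (-0.12, adjusted p = 0.107) or without shRNA2 replicate 1 (adjusted p = 0.0711).

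*Myc* was at 0.300 and 0.697 CPM with nt-shRNA, 0.541, 0.889 and 0.428 CPM with shRNA1 and 2.98, 6.27 and 1.56 CPM with shRNA2. All 3 shRNA2 libraries lay above the other 5, spread widely among themselves, and *Myc* was higher with shRNA2 (log2 fold change 2.83, SE 0.487, edgeR adjusted p = 7.0e-05) while staying a low transcript. The value was 2.16 without shRNA2 replicate 2, the highest library, and 3.56 without nt-shRNA replicate 2 and it passed in both cases. *Mycn*, the more abundant MYC family gene here, measured 89.2 and 95.6 CPM with nt-shRNA, 91.7, 92.8 and 94.8 CPM with shRNA1 and 102.5, 105.4 and 107.6 CPM with shRNA2. Its shRNA2 value of 0.19 (edgeR adjusted p = 0.0144) did not pass without nt-shRNA replicate 1 (0.13, adjusted p = 0.197) or with no filter (0.16, adjusted p = 0.0730). *Mtor*, the kinase that senses amino acids in the mTORC1 complex, and its partner *Rptor* were not called with either hairpin (*Mtor* 0.09 and 0.08, edgeR adjusted p = 0.286 and 0.258, and *Rptor* -0.15 and -0.15, adjusted p = 0.104 and 0.0613). *Mtor* passed with both hairpins when scaled by library size alone (0.20 and 0.17, edgeR adjusted p = 0.0155 and 0.0216). *Rptor* passed with shRNA2 without shRNA1 replicate 1 or replicate 3 (-0.15 in both cases) and with the 2 groups alone (-0.15), and with both hairpins under the replicate block (-0.17 each, edgeR adjusted p = 0.04952 and 0.0285). In the other direction, its shRNA1 value was -0.09 without shRNA1 replicate 1 (edgeR adjusted p = 0.339). With library size alone its values were -0.03 and -0.06 (adjusted p = 0.744 and 0.450).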

How the data were processed

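Poly(A)-selected RNA of 8 libraries was read in pairs of 100 bases. The authors aligned these reads with STAR to mm10 (GRCm38), counted fragments on exons with featureCounts 1.6.2 against GENCODE M24 without strand and without multiply aligned fragments, and deposited raw counts for 55385 genes with no normalization. Columns were matched to samples by title, and symbols were taken by Ensembl identifier from GENCODE M21 (55144 matched). The 10 transporters and all gene lists were chosen with earlier results of these data known.

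Counts were analysed with edgeR 4.0.16 in R 4.3.3. Genes passing filterByExpr (minimum count 10, 17445 genes) were TMM-normalized and tested with glmQLFit and glmQLFTest, with 1 coefficient per group over all 8 libraries, no block and Benjamini-Hochberg adjustment over all tested genes at 0.05. SE values come from the F statistic. The labels call the libraries biological replicates. Levels per length are CPM divided by the deposited exon length, which joins all annotated exons of a gene and is not the length of 1 transcript. The code was tested on simulated data for shRNA2 against nt-shRNA, with 200 genes changed 2-fold. It recovered 199 of them, and 7.01% of its calls were false, a share above the threshold of 0.05. Recovery of changes under 2-fold, as in most calls of the transporters, was not tested. Within each group, no library repeated another within sampling noise. Intervals of counting error are not given, and the 3-count floors cover counting error only. Named besides the transporters were *Eftud2*, 7 regulators, and per list the 3 higher and 3 lower called genes with the smallest adjusted p with shRNA2. Further list genes (*Asns*, *Chac1*, *Ddit3*, *Vldlr*, *Fgf21*, *Atf5*, *Trib3*, *Aldh18a1*, *Slc36a1*, *Slc38a7*, *Slc66a1*, *Slc7a4* and *Slc7a11*) were named after their values were seen. Alternatives were DESeq2 1.42.0 (the authors' test), DESeq2 size factors, library size with no further scaling, no filter, a minimum of 10 counts per library, the 2 groups compared alone, a replicate block and each library left out.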

Additional observations from a re-analysis of the deposited data

Results flagged for a closer look

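In 9 of the transporters and list genes tested, the fold changes against the shared controls had opposite signs with the 2 hairpins, and the direct comparison of shRNA2 with shRNA1 passed the edgeR test. Over all tested genes, 16.9% were called higher and 18.7% lower in that direct comparison. How many of those also had opposite signs was not counted, so the 9 cannot be set against all genes. Among the 10 transporters, the genes that met both conditions were *Slc38a2* (log2 difference 0.43, edgeR adjusted p = 4.3e-04) and *Slc43a1* (0.47, adjusted p = 0.00222). The others were the CAT3 gene *Slc7a3* (1.13, adjusted p = 3.4e-05), the sestrin *Sesn2* (0.69, adjusted p = 5.1e-05), *Atf5* (0.47, adjusted p = 0.00391), *Slc36a1* (0.36, adjusted p = 0.00365), *Asns* (0.33, adjusted p = 5.4e-04), *Slc66a1* (0.33, adjusted p = 0.0325) and, lower with shRNA2, *Slc7a4* (-0.40, adjusted p = 0.0490). The difference of *Slc7a4* passed in 4 of 15 alternative settings and that of *Slc66a1* in 10 of 15, whereas the other 7 genes passed in all 15. The size of the *Atf5* difference ranged from 0.30 to 0.60 over these settings. Each of the 8 genes with a positive difference was higher in 3 of 3 shRNA2 libraries than in any shRNA1 library. The genes were picked by the test on these same libraries, so this order adds no support. The share of all tested genes with such an order was not counted. Of the 9, *Slc7a3* alone was called against nt-shRNA with both hairpins, its shRNA2 call being lost in several settings, so in the other 8 genes the opposite sign rests on at least 1 value that did not pass.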

How the results depend on the processing

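Over the 15 alternatives, 429 of 450 values of the 10 transporters kept direction and side of the threshold. Counts of called transporters were the same within 1.5 times in all alternatives but leaving out 1 library, where members lower with shRNA1 ranged from 3 to 6, and between the hairpins lower ones from 2 to 4 and higher ones from 2 to 4. Single-library ranges for other lists were 2 to 6 (other transporters higher with shRNA2), 2 to 4 and 1 to 2 (higher and lower between hairpins), 10 to 18 (ATF4-linked genes lower with shRNA1), 1 to 3 (higher with shRNA2), 0 to 3 (enzymes higher with shRNA2), and 1 to 2 and 5 to 8 (enzymes higher and lower between hairpins). Higher other transporters with shRNA2 numbered 3 with DESeq2 and 8 with library size alone, between hairpins 2 with no filter, and lower ones 1 with DESeq2, no filter, 2 groups or the block. ATF4-linked genes higher with shRNA2 numbered 3 with library size alone or the block, and 2 with no filter or at least 10 counts. Higher enzymes numbered 2 (shRNA1) and 5 (shRNA2) with library size alone, 1 (shRNA1) with at least 10 counts and 1 (shRNA2) with no filter. Signs turned for small uncalled values. With library size alone, shRNA1 values became 0.0041 (*Slc38a1*), 0.078 (*Slc38a2*), 0.084 (*Slc43a1*) and 0.017 (*Sesn2*), with at least 10 counts 0.0013 (*Slc43a1*), and with the block 0.032 (*Slc38a2*) and -0.0046 (*Mycn*). Leaving out 1 library, the ranges were -0.100 to 0.010 (*Slc38a2*), -0.077 to 0.0073 (*Slc43a1*), -0.215 to 0.986 (*Myc*) and -0.039 to 0.060 (*Mycn*) with shRNA1, -0.040 to 0.077 (*Slc38a1*) with shRNA2, and between hairpins -0.071 to 0.022 (*Gcn1*), -0.030 to 0.0087 (*Mtor*), -0.058 to 0.033 (*Rptor*), -0.115 to 0.023 (*Slc7a2*) and -0.050 to 0.032 (*Slc6a6*). *Myc* could not be tested at a minimum of 10 counts in all libraries. The cause was not tested.

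The library numbers were not taken as pairs, since the labels do not say that they mark a shared culture or day and no correlation exceeded 0.1. In its qPCR, however, the paper paired KD replicates with their corresponding nt-shRNA replicates. Whether the sequenced libraries share such pairs could not be checked, so the results of a replicate block are given here. Same-numbered deviations from group means correlated across genes by 0.022, 0.057 and 0.074 between the hairpins, although shRNA2 replicate 1 correlated more with shRNA1 replicate 2 (0.028), and by -0.026 to 0.011 with nt-shRNA. A replicate block changed no call of the 10 transporters. Among the other genes named, it added calls of *Eftud2* (-0.21, edgeR adjusted p = 0.0206), *Slc38a4* and *Rptor* with shRNA1, and of *Rptor*, *Asns* (0.18, adjusted p = 0.0236), *Atf5* (0.34, adjusted p = 0.0333) and *Slc7a4* (-0.44, adjusted p = 0.0352) with shRNA2. It removed those of *Asns* with shRNA1 (-0.15, adjusted p = 0.0858) and of *Slc7a4* between the hairpins (-0.39, adjusted p = 0.05001). It gave 2694 higher and 3324 lower genes with shRNA1, 4898 and 5136 with shRNA2, and 3116 and 3402 between hairpins, against 2407 and 2981, 4748 and 5010, and 2941 and 3263. The 2 control libraries differ by 0.020 to 0.321 (log2) in the transporters, and the counts of *Slc6a9* and *Slc43a1* limit their precision.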
